A study of Mus musculus with 8 samples.

Results

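The cytosolic ribosomal protein genes were followed in mouse embryonic stem cells (ESCs) depleted of Rad21, a subunit of the cohesin ring that holds DNA within loops and between sister chromatids. Members were the array probe sets that carry a single gene symbol of the form Rpl or Rps plus a number, together with Rplp0, Rplp2, Rpsa and Fau, and each gene was represented by its brightest probe set over the 8 arrays. The Rps6k kinases, which share the prefix but modify the ribosome from outside, were left out. This gave 50 of the 18193 genes measured, namely 44 canonical ribosomal protein genes (22 of the 60S subunit and 22 of the 40S subunit) and 6 paralogs, Rpl3l, Rpl7l1, Rpl22l1, Rpl39l, Rps4l and Rps27l, which are shown apart. Another 27 canonical names, including Rplp1 and Rpl3, lay on probe sets that carry several symbols and were counted only as a group.

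R1/E cells, a mouse ESC line, were transfected with esiRNA, an enzymatically made pool of short interfering RNAs, and total RNA was measured on Affymetrix arrays. The Luc group of 4 arrays received a pool against luciferase, a gene that mouse cells do not have, and the Rad21 group of 4 arrays received a pool against Rad21. Both groups were unmodified R1/E cells without feeder cells that had been given 800 ng of esiRNA with Lipofectamine2000 at 80000 cells per well for 48 h, and the labels call the arrays biological replicates 1 to 4. As a model, each group is 1 cell line after a transient and incomplete depletion. The comparison asks how the mRNAs of the ribosome responded to the knock-down.

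A ribosome joins its RNAs to a single copy of most of its proteins, so their genes are expressed together and at a very high level in growing cells, ESCs among them. The large subunit holds the site where peptide bonds form and carries the P stalk of Rplp0, Rplp1 and Rplp2, which recruits the translation factors. The small subunit reads the mRNA. The mRNAs of vertebrate ribosomal proteins typically begin with a C followed by an uninterrupted stretch of pyrimidines, the terminal oligopyrimidine (TOP) tract, through which Larp1 and the kinase mTORC1 control their translation. Transcription of these genes starts from short promoters that often hold sites for ETS factors and YY1 and lack a TATA box.

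The start sites of the 4 canonical genes that passed the test below, and of the paralog that did, are shown because the pyrimidine tract is the feature that this gene family shares. Each line gives 20 bases before and 10 bases from the annotated start in RefSeq on GRCm38.p6, 5′ to 3′ on the strand of the gene, with the longest run of C and T in capitals. In all of them the window lies across the promoter and the first exon.

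Rps25, chr9:44407694-44407723, plus strand: TCCTTTTTTTCCgacatcttagcgaggctg

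Rps18, chr17:33955656-33955685, minus strand: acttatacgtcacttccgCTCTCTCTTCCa

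Rpl4, chr9:64173367-64173396, plus strand: agTCTTTCCTTTTCCTgtgggagcagccgg

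Rpl14, chr9:120571497-120571526, plus strand: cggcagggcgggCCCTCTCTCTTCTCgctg

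Rpl39l, chr16:10170208-10170237, plus strand: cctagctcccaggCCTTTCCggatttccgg

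The runs were 12, 11, 14 and 14 bases long in Rps25, Rps18, Rpl4 and Rpl14, and 7 bases long in Rpl39l. In Rps18 and Rpl14 the run crossed the annotated start. In Rps25, Rpl4 and Rpl39l it lay wholly before the annotated start, and so outside the annotated mRNA. Promoter sequences were matched for 39 of the 44 canonical genes, with 45 start sites. A run of at least 8 pyrimidines within these 30 bases, on the strand of the gene, was present at 18 (40%) of the 45 start sites, against 12.6% of all 32851 start sites and 15.1% of the 73 of mitochondrial ribosomal protein genes. In the 300 bases from 250 before to 50 after the start, searched on both strands, the ETS-type word CCGGAAG occurred at 42.2% of the canonical start sites and 8.86% of all. Its reverse complement can share letters with a pyrimidine run. The YY1-type word AAGATGGC occurred at 8.89% against 2.75%, and TATAAA at 11.1% against 13.6%. At the mitochondrial start sites these 3 words occurred at 34.2%, 16.4% and 6.85%, so that AAGATGGC was more frequent there than at the canonical ones. A word found here is a description of the letters and not a measured binding site.

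The labels held at the targeted gene, since all 3 Rad21 probe sets fell in the knock-down, with changes of -1.58, -2.59 and -0.98 on the log2 scale (limma, adjusted p = 0.00222, 0.000164 and 0.0114). Arrays of 1 group correlated with Pearson coefficients of 0.998 to 0.999 over 45037 probe sets, which are not independent replicates. Pluripotency genes marked the cells as ESCs in both groups, with 8 of 8 markers above the dim range of the array (a mean of 4), 5 of them lower in the knock-down, and a summed level of 17.70 to 17.74 in Luc and 17.46 to 17.51 in Rad21 (log2 of the sum of linear values). Fibroblast or feeder markers had 1 of 8 above the dim range and summed to 6.03 to 6.13 against 5.96 to 6.25. Endoderm markers (1 of 6 above the dim range, Foxa2) summed to 5.20 to 5.27 against 7.37 to 7.99, and trophectoderm markers (3 of 5) to 6.96 to 7.65 against 7.90 to 8.10. Neural markers (4 of 4) summed to 10.09 to 10.14 against 9.9997 to 10.12 and erythroid markers (0 of 2) to 2.88 to 2.92 against 2.89 to 2.90. Their part in the results below was not tested. In such bulk samples, fewer cells of a type and less RNA per cell cannot be told apart, and 4 arrays per group set the precision of what follows.

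Most canonical ribosomal protein genes moved very little. Of the 44, Rpl14 rose and Rps25, Rpl4 and Rps18 fell at an adjusted p under 0.05, whereas 40 did not pass the test. That is 9.09% of the canonical genes, beside 22.6% of all genes (10.1% up and 12.6% down). The median change was -0.04 on the log2 scale (range -0.57 to 0.41), beside 0.003 over all genes. Changes were smaller than 0.15 in either direction for 41 of 44 genes, and the 95% confidence interval lay within ±0.25 for 37 of them and within ±0.5 for 40. The intervals are what bounds the genes that did not pass, since a missed threshold does not show that a gene stayed level.

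**Figure D1:**
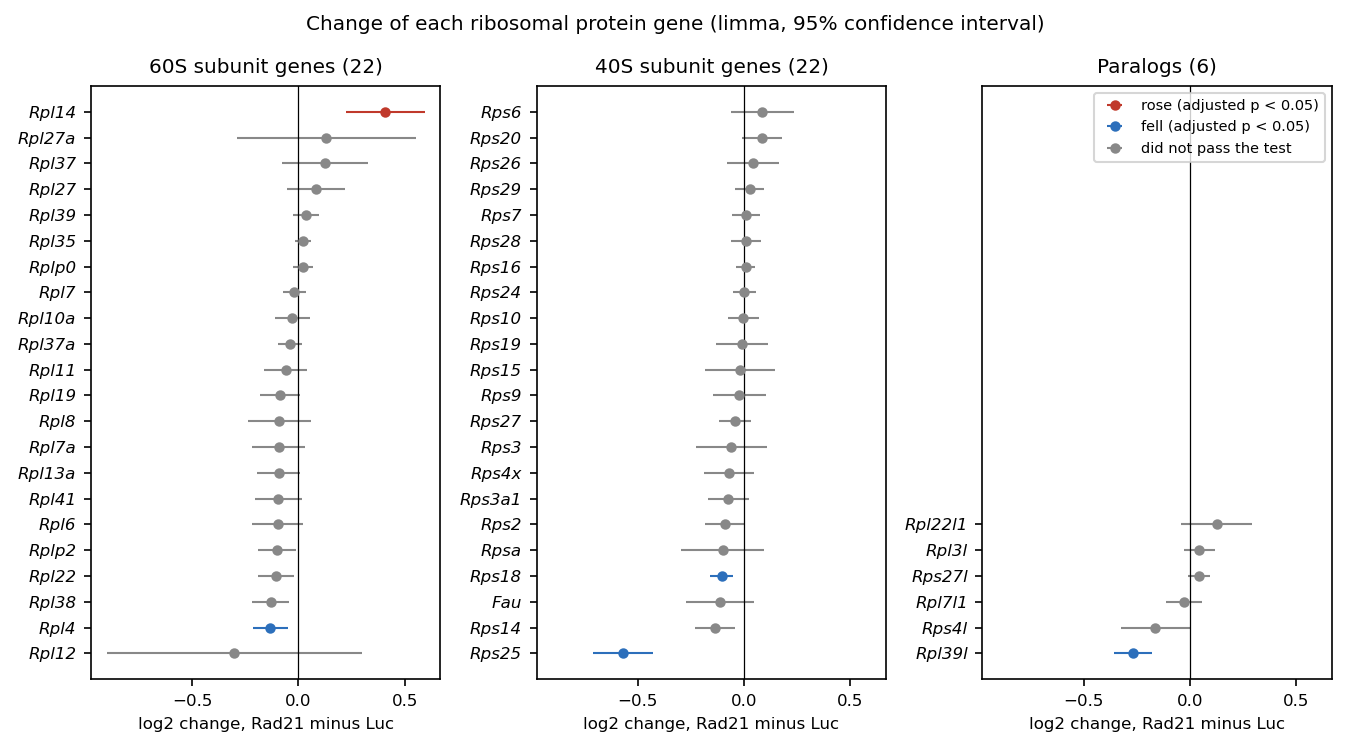
Log2 change (Rad21 minus Luc, 4 arrays each) of the 22 genes of the 60S subunit, the 22 genes of the 40S subunit and the 6 paralogs; points are limma estimates, bars are 95% confidence intervals and colours mark calls at an adjusted p under 0.05. All but 3 canonical genes lie within 0.15 of 0, and Rps25, Rpl14 and the uncalled Rpl12 lie outside.

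Rps25, a small-subunit protein at the head of the 40S particle that is not essential for general translation and is needed by some viral entry sites, had the widest departure. It read 11.51, 11.53, 11.72 and 11.73 in Luc replicates 1 to 4 and 11.13, 11.01, 11.05 and 11.01 in the Rad21 arrays (log2). Every knock-down array was thus below every control array. The mean went from 11.62 ± 0.12 to 11.05 ± 0.06 (SD, n = 4), a change of -0.57 ± 0.06 (SE) or 1.48-fold lower, with an adjusted p of 0.00082. The fall was -0.45 within replicates 1 and 2 and -0.69 within replicates 3 and 4, and it passed the test in each of these sets alone (adjusted p = 0.0171 and 0.0072). It rests on 1 single-symbol probe set with a mean of 11.34, beside a median of 15.61 over the canonical genes, with no other to compare.

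Rpl14, a 60S protein, moved in the opposite direction. Its values were 11.33, 11.47, 11.14 and 11.15 in Luc and 11.59, 11.71, 11.72 and 11.71 in Rad21. The groups did not overlap, and the lowest knock-down array was replicate 1. The mean rose from 11.27 ± 0.16 to 11.68 ± 0.06 (SD, n = 4), by 0.41 ± 0.08 on the log2 scale (SE) or 1.33-fold (limma, adjusted p = 0.0118). Replicates 1 and 2 alone gave 0.25 (adjusted p = 0.143), and replicates 3 and 4 alone gave 0.57 (adjusted p = 0.0070). Rpl14 too had only 1 single-symbol probe set, with a mean of 11.48.

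Rpl4 and Rps18 changed far less than Rps25, and both lay near the top of the array scale. Rpl4, which lines the exit tunnel of the large subunit, read 16.25, 16.36, 16.27 and 16.27 in Luc and 16.20, 16.18, 16.16 and 16.08 in Rad21. The difference was -0.13 ± 0.04 (SE, limma adjusted p = 0.0478), with no overlap between groups. Rpl4 was no longer called when any 1 of the 8 arrays was left out, with adjusted p up to 0.0939. Rps18, which sits in the head of the small subunit next to the P site, read 16.18, 16.23, 16.18 and 16.18 in Luc and 16.07, 16.12, 16.11 and 16.05 in Rad21. Its change was -0.11 ± 0.02 (SE, limma adjusted p = 0.0217), again without overlap, and it did not pass without Rad21 replicate 1 or without Rad21 replicate 4 (highest adjusted p = 0.0650). Neither gene passed within a replicate set alone. In replicates 1 and 2 alone 0 canonical genes rose and 1 (Rps25) fell, beside calls for 19.9% of all genes, and in replicates 3 and 4 alone 1 rose (Rpl14) and 2 fell (Rps25 and Rpl12), beside 15.3%. Both calls were lost under each of 3 other centrings of the arrays and with the replicate number as a block, which left Rps25 and Rpl14 as the called canonical genes, beside 20.8% of all genes under the block.

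**Figure D2:**
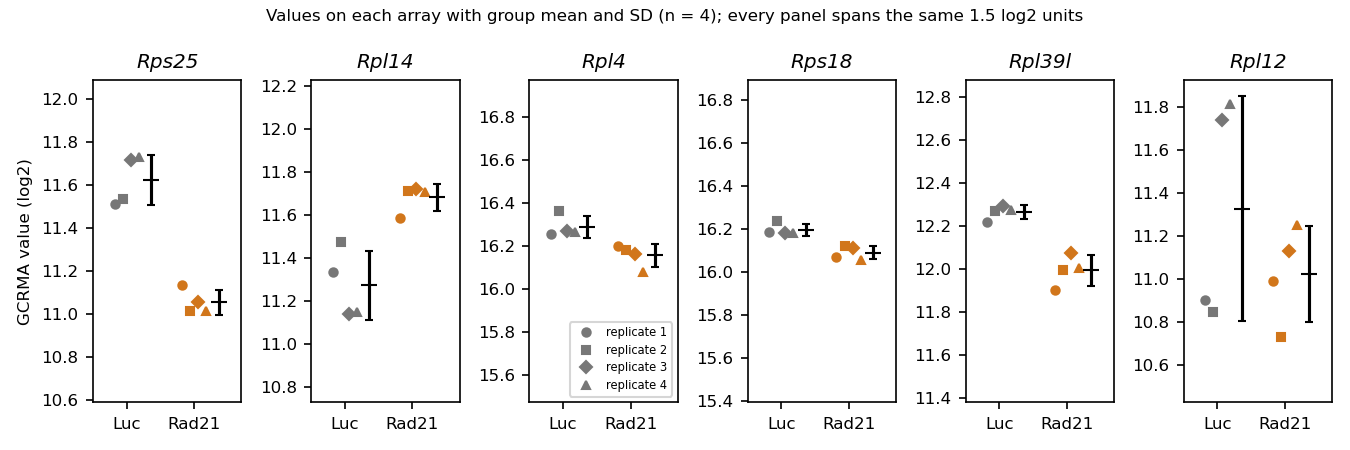
GCRMA values (log2) of 6 genes on each array, with symbols for replicates 1 to 4 and the group mean and SD beside them (n = 4); all panels span the same number of log2 units, so distances compare across genes. Rps25, Rpl14 and Rpl39l part clearly between groups, Rpl4 and Rps18 part by a narrow margin, and Rpl12 follows replicates 3 and 4 of the Luc group.

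Several genes just outside the threshold were picked out after their values were seen. Rpl38, a 60S protein, changed by -0.13 (limma adjusted p = 0.0555), and Rps14, a 40S protein needed for maturation of the small subunit, by -0.14 (adjusted p = 0.0588). In both, the groups did not overlap. With the replicate set (1 and 2, or 3 and 4) as a block, 6 canonical genes were called, namely the 4 above, Rps14 and Rpl22, another 60S protein, beside 27.1% of all genes. The least certain gene was Rpl12, a protein at the base of the P stalk, which read 10.90, 10.85, 11.74 and 11.82 in Luc and 10.99, 10.73, 11.13 and 11.25 in Rad21. Replicates 3 and 4 of the Luc group stood above the other 6 arrays, and the groups overlapped. The pooled change of -0.30 ± 0.26 (SE, limma adjusted p = 0.635) combined -0.01 in replicates 1 and 2 with -0.59 in replicates 3 and 4 (adjusted p = 0.0248 in the latter set alone). The labels do not say what distinguishes these sets, and what parts them was not tested.

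Both measured proteins of the P stalk were uncalled. Rplp0, a common reference gene, read 16.18 to 16.23 in Luc and 16.20 to 16.25 in Rad21, a change of 0.02 ± 0.02 (SE, limma adjusted p = 0.692). Rplp2 read 16.06 to 16.24 and 16.01 to 16.07, a change of -0.10 ± 0.04 (adjusted p = 0.151). Rpsa, which doubles as a laminin receptor precursor, changed by -0.10 ± 0.08 (adjusted p = 0.617), and Fau, whose product is cleaved into a ubiquitin-like peptide and a 40S protein, by -0.11 ± 0.07 (adjusted p = 0.424). In all 4 genes the arrays of the groups overlapped. The second probe set of Rpsa had a mean of 2.8, in the dim range, and a change of 0.04.

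Taken by subunit, the counts were alike. Of the 22 genes of the 60S subunit 1 rose and 1 fell, with a median of -0.07, and of the 22 genes of the 40S subunit 0 rose and 2 fell, with a median of -0.02. Below 0 lay 29 of the 44 canonical genes and above it 15. The groups did not overlap for 8 genes, or 3 upward and 5 downward, beside 27.8% of all genes (15.2% downward). Those 8 are the 4 called genes, Rpl38, Rps14, Rps20 and Rpl35.

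A view by array showed how narrow the band was. For the 36 canonical genes with a mean of at least 12, the median deviation from the Luc mean of the same gene was 0.01, 0.09, -0.07 and -0.01 in Luc replicates 1 to 4 and -0.03, -0.02, -0.04 and -0.12 in the Rad21 arrays. Rad21 replicate 4 was the lowest of the 8 arrays, and Luc replicate 3 lay below the other 3 Rad21 arrays. Genes above their Luc mean numbered 24, 28, 5 and 13 of 36 in the Luc arrays and 11, 14, 13 and 7 in the Rad21 arrays. The median change of all canonical genes, -0.04, was less than the spread of the medians among the 4 Luc arrays (SD 0.05). That SD describes single arrays, whereas each change compares means of 4 arrays, so they are not like for like. The other 1372 genes of this brightness had medians of -0.06, -0.06, -0.04 and -0.06 in the Rad21 arrays. As measured beside these values, the 3′ minus 5′ difference of the Gapdh control probe sets, a measure of RNA integrity, was -0.28 to -0.23 in Luc and -0.30 to -0.25 in Rad21, with Rad21 replicate 4 the lowest. The same difference for Actb was 0.37 to 0.46 in Luc and 0.38 to 0.44 in Rad21, with Rad21 replicate 4 inside the Luc range. The part of RNA integrity in these deviations was not tested.

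**Figure D3:**
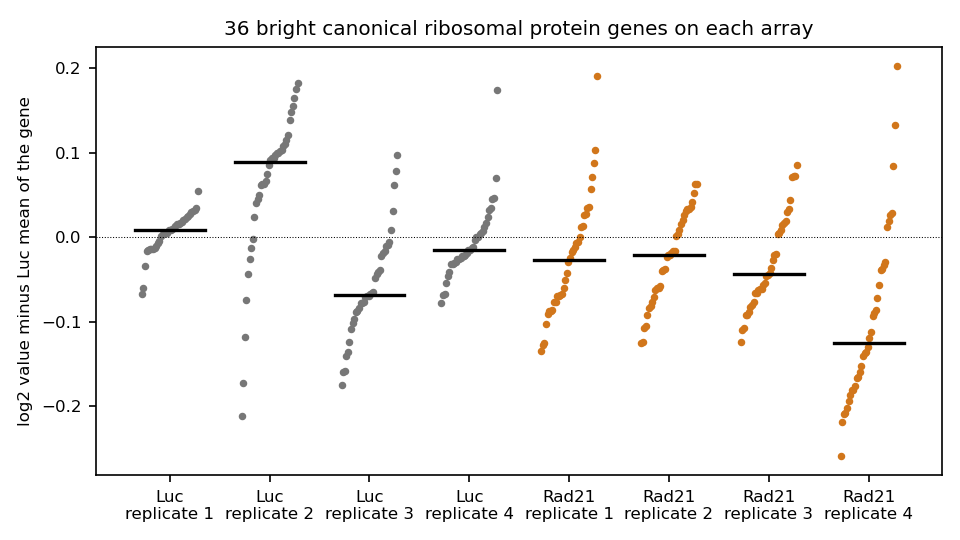
Deviation (log2) of each of the 36 canonical ribosomal protein genes with a mean of at least 12 from its own Luc mean, by array; points are genes in order of size and bars are medians. The medians run from -0.12 in Rad21 replicate 4 to 0.09 in Luc replicate 2, and those of the groups overlap.

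Counts of calls were also taken by brightness. A mean of at least 12 was reached by 36 of the 44 canonical genes, of which 2 were called, both downward (5.56%), with a median change of -0.06. Among all 1413 genes of that brightness 41.2% were called (14.1% up and 27.1% down), and their median was -0.05. A mean of at least 15 was reached by 34 canonical genes among 108 in all. In this top range, 2 of 34 canonical genes (5.88%) and 18.5% of all genes were called, members included. Of the 8 canonical genes below 12, Rps25 and Rpl14 were called (25%), beside 21.1% of all genes below 12. One of the 8, Rps16, had a mean of 1.89, in the dim range, so that its probe set gave no usable measure of the gene. Rpl39 and Rps27 had means of 7.32 and changes of 0.04 and -0.04. Whether the highest spots were saturated was not tested, since the deposited values do not carry scanner readings.

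Probe sets of the same gene disagreed in some cases. The 50 genes had 106 single-symbol probe sets, of which 3 rose and 6 fell, or 8.49%, beside 14.9% of all probe sets. More than 1 probe set was available for 24 genes. The genes described next were picked out after their values were seen. Rps20, a protein of the 40S head, had a brightest probe set at 16.40 to 16.58 in Luc and 16.58 to 16.62 in Rad21, a change of 0.08 (limma adjusted p = 0.265). A dimmer probe set of Rps20 read 7.05, 6.93, 6.93 and 6.92 in Luc and 8.32, 8.20, 7.56 and 7.66 in Rad21. The latter rose by 0.98, or 1.97-fold (adjusted p = 0.00834), and the dimmest, at 5.47 to 6.04 and 6.09 to 7.12 changed by 0.84 (adjusted p = 0.0712).

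Rps3, a 40S protein that also takes part in DNA repair, showed the same split. Its brightest probe set changed by -0.06 (limma adjusted p = 0.771). Another one read 10.71, 10.76, 9.57 and 9.73 in Luc and 11.48, 11.51, 10.86 and 10.95 in Rad21, a change of 1.01 ± 0.32 (SE, adjusted p = 0.0887) with 0.76 from replicates 1 and 2 alone and 1.25 from the other pair. All Rad21 arrays were above all Luc arrays there, and that probe set passed within each pair alone (adjusted p = 0.00361 and 0.0122) and under the replicate block (adjusted p = 0.0106). Rps9 had -0.02 at its brightest probe set and a rise of 0.39 at one with a mean of 10.2 (adjusted p = 0.0389). For Rpl27 the brightest probe set changed by 0.08 (adjusted p = 0.530) and the one with a mean of 15.3 fell by 0.11 on the log2 scale (adjusted p = 0.0360). Under the replicate block these calls of Rps9 and Rpl27 were lost (adjusted p = 0.0588 and 0.0895). Rps18 had 6 probe sets. Its 3 bright ones changed by -0.11, -0.11 and -0.06, with only the first past the threshold, and its 3 dimmer ones, with means of 3.1 to 6.2, by 0.22, -0.15 and 0.09 without passing. The mean of all 6 changed by -0.02 (adjusted p = 0.903). No fold was drawn between probe sets, since brightness depends on the probes as well as on the mRNA.

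**Figure D4:**
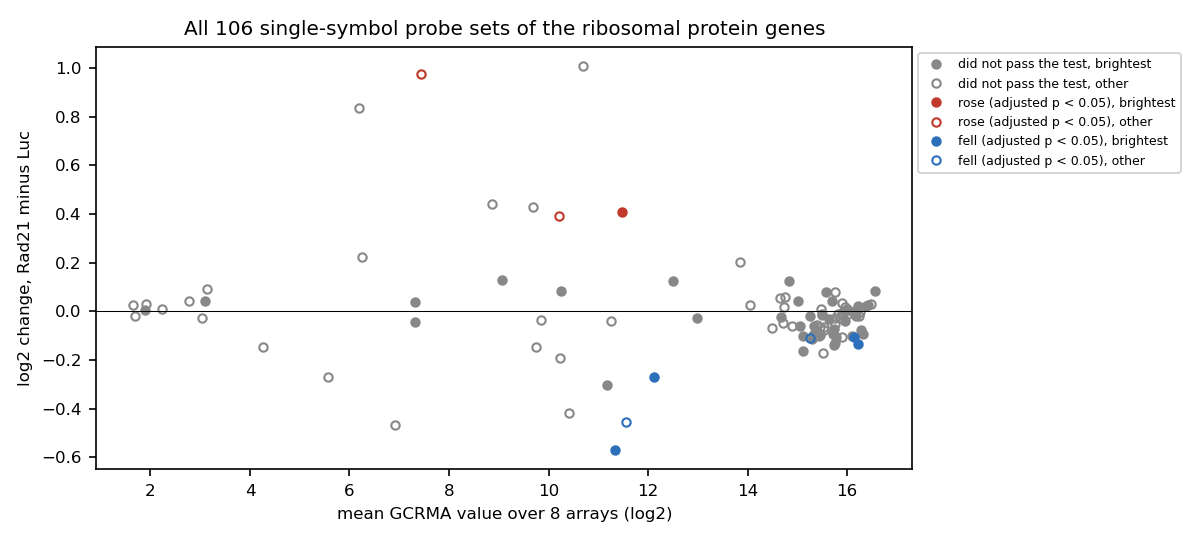
Log2 change (Rad21 minus Luc) of all 106 single-symbol probe sets of the 50 genes against their mean GCRMA value over 8 arrays (log2); filled points are the brightest probe set of a gene and open points its others, coloured by calls at an adjusted p under 0.05. Probe sets above 14 form a flat band near 0, while those between 6 and 12 range from -0.57 to 1.01.

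Ribosomal protein genes have many processed pseudogenes, and near-identical copies can hybridise to the same probes. Among the 50 brightest probe sets, 14 had names ending in _x_at and 2 in _s_at, the marks of probes that are shared with other sequences. Without these endings the median over the canonical genes was -0.06 and 5 genes were called, including all 4 of the main comparison and Rps20, beside 21.8% of all genes. The 110 probe sets with several symbols, at least one of them a ribosomal protein gene, had 5 rises, 2 falls and a median of -0.04. That is 6.36% called, beside 14.9% of all probe sets. Among the 83 of them with a mean of at least 12, 2 rose and 2 fell. These values stand for the probe sets as a group, since none can be assigned to 1 gene.

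Among the 6 paralogs, Rpl39l was the one called. It encodes a copy of Rpl39, a small protein of the exit tunnel, and is known chiefly from testis. Rpl39l read 12.22, 12.27, 12.29 and 12.28 in Luc and 11.90, 12.00, 12.08 and 12.00 in Rad21, so that the groups lay apart. Its change was -0.27 ± 0.04 (SE) or 1.21-fold lower, with a limma adjusted p of 0.00291, and it held at -0.30 within replicates 1 and 2 and at -0.25 within replicates 3 and 4, passing in each set (adjusted p = 0.0413 and 0.0449). The parent Rpl39 changed by 0.04 ± 0.03 (adjusted p = 0.527) at its single probe set. That probe set had a mean of only 7.32, beside a median of 15.61 over the canonical genes. The difference between the pair was not tested.

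The other 5 paralogs did not pass. Rpl22l1, which substitutes for the RNA-binding protein Rpl22, read 14.75, 14.69, 14.84 and 14.83 in Luc and 14.82, 14.76, 14.995 and 15.05 in Rad21, a change of 0.13 ± 0.07 (SE, limma adjusted p = 0.392, or 0.0474 with the replicate set as a block). Rpl22 itself changed by -0.10 ± 0.04 (adjusted p = 0.117). The other Rpl22 probe sets changed by -0.05 (adjusted p = 0.392) and, at a mean of 9.70, by 0.43 ± 0.22 (SE, adjusted p = 0.330). The latter passed within each replicate set alone (limma adjusted p = 0.0131 and 0.0435) and under the replicate block (adjusted p = 0.00542). Rps4l, a relative of the X-linked Rps4x, changed by -0.16 ± 0.07 (adjusted p = 0.210) beside -0.07 for Rps4x. Rps27l, a p53 target, changed by 0.04 ± 0.02 (adjusted p = 0.364), and its other probe sets by 0.02 and 0.05. Rps27 changed by -0.04 at a probe set with a mean of only 7.32. Rpl3l, a form found in striated muscle, read 3.04 to 3.15 in Luc and 3.07 to 3.15 in Rad21, in the dim range.

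Rpl7l1, which functions in assembly of the large subunit, gave conflicting probe sets. The brightest read 12.92, 12.96, 13.08 and 13.05 in Luc and 12.98, 12.95, 12.98 and 12.98 in Rad21, a change of -0.03 (limma adjusted p = 0.809). A second one read 11.69, 11.78, 11.82 and 11.88 in Luc and 11.27, 11.30, 11.43 and 11.35 in Rad21, and fell by 0.45 on the log2 scale (adjusted p = 0.00107). The third changed by -0.04 (adjusted p = 0.942). The change of Rpl7 was -0.02.

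Other genes of the translation machinery were set beside the ribosomal proteins from listed names. Mitochondrial ribosomes are built from separate nuclear genes, and of 76 of these 3 rose and 40 fell, or 56.6%, with a median of -0.19. Both subunits were represented, with 1 rise and 26 falls among 47 large-subunit genes (median -0.20) and 2 rises and 14 falls among 29 small-subunit genes (median -0.16). The lowest were Mrpl14 at -0.59 ± 0.08, Mrpl1 at -0.58 ± 0.09 and Mrps16 at -0.52 ± 0.05 (SE, limma adjusted p = 0.00226, 0.00377 and 0.000647). The rises were Mrpl33 at 0.31, Mrps21 at 0.30 and Mrps24 at 0.16. Mrps24 lost its call when any array other than Luc replicate 2 was left out (adjusted p up to 0.106), and the mean of all probe sets gave 0.07 for it and -0.13 for Mrpl1. Among the 30 mitochondrial genes with a mean of at least 12, 1 rose and 18 fell, or 63.3%, beside 41.2% of all genes that bright. The count of calls fell to 27 in replicates 1 and 2 and 16 in replicates 3 and 4 alone, beside 19.9% and 15.3% of all genes.

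Factors that assemble ribosomes in the nucleolus gave a similar count. Of 77 such genes 2 rose and 36 fell, or 49.4%, with a median of -0.15, beside 22.6% of all genes and 41.2% of those with a mean of at least 12 (34 of the 77 genes were that bright). The 38 calls became 23, 21 and 25 without Rad21 replicate 1, 2 and 4, 20 and 15 in the replicate sets alone, and 20 after centring on Actb. In the same order, 18.8%, 18.5%, 19.7%, 19.9%, 15.3% and 21.3% of all genes were called. Senp3, a SUMO protease of the nucleolus, fell by 0.74 ± 0.06 on the log2 scale (SE, limma adjusted p = 0.000348). Noc3l changed by -0.68 and Noc2l by -0.67, both of which accompany the pre-60S particle. Noc3l lost its call without Luc replicate 2, 3 or 4 or Rad21 replicate 1 or 2 (adjusted p up to 0.0617). The rises, Rrs1 at 0.18 and Rpf2 at 0.13, are partners that bring the smallest ribosomal RNA into the large subunit, and each had a change of -0.02 when probe sets ending in _x_at or _s_at were left out. Rrs1 lost its call without Rad21 replicate 1, 2 or 4 (adjusted p up to 0.0585), and Rpf2 without Luc replicate 3 or Rad21 replicate 2 (adjusted p up to 0.0533). Of 15 genes for RNA polymerase I, which transcribes ribosomal RNA, and its factors 1 rose (Polr1a at 0.23) and 7 fell (53.3% in all), with a median of -0.13. The lowest of these were Znrd1, a small subunit of the polymerase, at -0.67, the activator Ubtf at -0.41 and Polr1b at -0.39. Polr1b lost its call without Luc replicate 1, 3 or 4 or Rad21 replicate 1 or 2 (adjusted p up to 0.0759). As the mean of all probe sets, Polr1a was at 0.03 (adjusted p = 0.543) and Ubtf at -0.71.

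Initiation factors moved in both directions, with 4 rises and 13 falls among 32 genes (53.1%) and a median of -0.09. Of these genes 23 had a mean of at least 12, where 41.2% of all genes were called. Eif4e2, a cap-binding protein that represses translation, fell by 0.55 on the log2 scale. Eif2s2, which carries the initiator tRNA as part of eIF2, fell by 0.47, and Eif2b4, part of the exchange factor for eIF2, by 0.46. Eif1b rose by 0.54, the scaffold Eif4g3 by 0.54 and Eif4h by 0.39, although Eif4h had a change of -0.07 without the _x_at and _s_at probe sets, and Eif4g3 one of 0.13 as the mean of all its probe sets. Under the replicate number as a block 11 of the 32 genes were called, beside 20.8% of all genes.

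A list of elongation factors and other transcripts named as TOP (the TOP list) had 28 measured genes. Of these 2 rose and 4 fell (21.4%), with a median of 0.01. The list included noncoding host genes, and the tract was not checked in its members. The share called was 22.6% over all genes and 41.2% over those with a mean of at least 12, which 25 of the 28 reached. The intermediate filament Vim rose by 0.80 ± 0.15 (SE, limma adjusted p = 0.0107) and Hnrnpa1 by 0.20. The noncoding host gene Snhg8 changed by -0.42, and Eef1e1, a scaffold protein of the tRNA synthetase complex, by -0.30. The import receptor Ipo7 changed by -0.11, but by 0.15 as the mean of all its probe sets, and lost its call without Luc replicate 4 or any 1 Rad21 array (adjusted p up to 0.0936). In the list of mTORC1, Larp1 and S6 kinases, 3 of 21 genes rose and 4 fell (33.3%), with a median of -0.05. Sesn3 rose by 1.13 ± 0.20 (SE, adjusted p = 0.00915) and Sesn1 by 0.57, both of which encode inhibitors of mTORC1 that respond to stress, and Rps6ka3, a kinase of the ERK pathway, by 0.56. Eif4ebp1, the repressor of the cap-binding factor eIF4E, changed by -0.43, Deptor, an inhibitor within the mTOR complexes, by -0.30 and Tsc2, an inhibitor of Rheb, by -0.25. Eif4ebp1 lost its call without Luc replicate 2, 3 or 4 or Rad21 replicate 1 or 2 (adjusted p up to 0.0892). As the mean of all probe sets, Rps6ka3 was at 0.13 (adjusted p = 0.0578) and Sesn1 at 0.27. With the replicate number as a block 4 of the 21 genes were called, beside 20.8% of all genes.

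**Figure D5:**
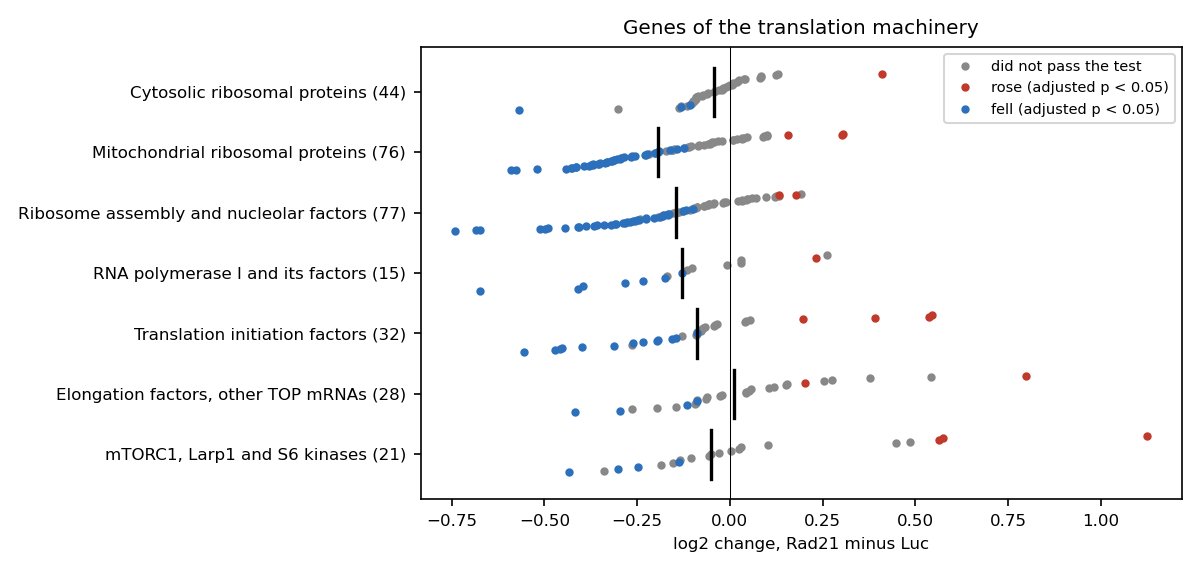
Log2 change (Rad21 minus Luc) of the 44 canonical ribosomal protein genes and of 6 lists of the translation machinery, with the number of genes measured; points are genes in order of size, bars are medians and colours mark calls at an adjusted p under 0.05. The cytosolic ribosomal proteins gather around -0.04, whereas the medians of the mitochondrial ribosomal proteins and of the assembly factors lie at -0.19 and -0.15.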

How the data were processed

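Affymetrix Mouse Genome arrays were hybridised for 4 Rad21 and 4 Luc samples. The authors deposited log2 expression values per probe set, computed by GCRMA in Partek Genomics Suite 6.4. This method brings the arrays close to one distribution (array medians of 3.08 to 3.16), which can hide a change shared by all transcripts.

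Of 45101 probe sets, 64 controls were left out and 45037 tested, 34945 with 1 platform symbol, 932 with several and 9160 with none. By Entrez ID, 34741 single symbols and all 50 members matched RefSeq (GRCm38.p6). The study's methods state an analysis of variance. Here limma 3.58.1 (lmFit and eBayes, R 4.3.3, two-sided, no block, no filter) was run with Benjamini-Hochberg adjustment over the 45037 tested, with calls at an adjusted p under 0.05. The procedure was tested on simulated data.

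The members, the lists and the tests were chosen with earlier results of these data known. Named genes were the called canonical genes, all paralogs, the P stalk genes, Rpsa, Fau, Rad21 and up to 3 called genes per list and direction. Rpl12, Rpl27, Rpl38, Rps3, Rps9, Rps14 and Rps20 were added after their values were seen. Lists could share genes, as 4 initiation factors also stood in the TOP list, and the list of 18 polymerase I names held newer names of the same genes.

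Alternatives were other variance models, blocks, filters, scalings, choices of probe set and thresholds, each replicate set alone and each array left out. Figures were drawn with matplotlib 3.10.9.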

Additional observations from a re-analysis of the deposited data

Results flagged for a closer look

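Rad21 and the genes added after their values were seen were not searched for outlying arrays. For each other named gene and for the median of the canonical genes, the arrays of each group were searched. The search was for an array that stood apart from the other 3 by Dixon's gap test at the 95% level. Of 94 such groups 4 were found, and chance alone flags about 5% of groups. For Rpl14, Rad21 replicate 1 read 11.5852 against 11.7067 to 11.7199 on the other knock-down arrays. For Rpl4, Luc replicate 2 read 16.3632 against 16.2536 to 16.2697, and for Rps18 the same array read 16.2349 against 16.1787 to 16.1846. For Rpl7l1, Rad21 replicate 2 read 12.9469 against 12.9783 to 12.9847.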

How the results depend on the processing

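The median change of the canonical ribosomal protein genes moved by less than the spread of the Luc array medians under every alternative run, and lay between -0.07 and -0.02 with any 1 array left out. That spread (SD 0.05) is that of single arrays rather than of means of 4. It is wider than the median change itself (-0.04), so a loss of the whole change would also have stayed within it. Relative to the median over all genes, the canonical median was at -0.045 in the main run and at -0.011 after quantile normalization. Centring on the Gapdh control left that difference at -0.045 but put the median over all genes at 0.034 rather than 0.003. The number of canonical genes called, 4, was 2 with a minimum mean of 4, 2 under each centring (on probe sets with a mean of at least 8, on Actb and on the Gapdh control), 1 at a threshold of 0.01, 1 in replicates 1 and 2 alone, and 2 to 6 with 1 array left out (2 without Rad21 replicate 1 or without Rad21 replicate 4). With a minimum mean of 12 it was 4 as well, but only Rpl4 and Rps18 were shared, since Rps25 and Rpl14 lie below that mean. Counted by probe set rather than gene, 7 of 96 single-symbol probe sets of canonical genes and 7 of the 110 with several symbols were called. The share over all probe sets was 14.9%. Rps25 and Rpl39l passed in all 24 and 25 alternatives that measured them, Rpl14 missed in 2 of 24, Rps18 in 11 of 25 and Rpl4 in 17 of 25.

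Paralogs called were 2 rather than 1 with the replicate set as a block and when probe sets were averaged per gene. Of all genes, 27.1% and 24.5% were called under these settings. With replicates 1 and 2 alone the calls were 27 mitochondrial ribosomal proteins rather than 43, 20 assembly factors rather than 38 and 5 polymerase I genes rather than 8. With replicates 3 and 4 alone they were 16, 15 and 4, with 6 initiation factors rather than 17 and 3 TOP mRNAs rather than 6. The replicate set as a block called 10 TOP mRNAs. With a minimum mean of 12, which tests fewer genes, 51.4% of all genes were called. Calls there were 21 of 30 mitochondrial ribosomal proteins and 19 of 34 assembly factors. Of the polymerase I genes 1 of 2 was called, and of the mTORC1 list 1 of 5, rather than 7 of 21. Centring on Actb called 20 assembly factors, 3 polymerase I genes, 11 initiation factors and 4 of the mTORC1 list, and the Gapdh control called 22 assembly factors and 3 polymerase I genes. At a threshold of 0.01 the counts were 27, 17, 4, 11, 3 and 2 for mitochondrial ribosomal proteins, assembly factors, polymerase I, initiation, TOP and mTORC1 genes. With 1 array left out assembly factors ranged from 21 to 36 (23 without Rad21 replicate 1, 21 without Rad21 replicate 2 and 25 without Rad21 replicate 4). The cause was not tested.

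Same-numbered arrays correlated in their deviations at 0.02, 0.13, 0.07 and 0.13, all weakly positive but not always the best match. This cannot decide whether the numbers pair samples. The replicate sets did show a shared structure. Luc and Rad21 arrays correlated at 0.02 to 0.20 within a set and at -0.19 to -0.04 across the sets. The main test did not model this, and the replicate set as a block called 6 canonical genes, beside 27.1% of all genes. With the replicate number as a block the calls were 2 canonical genes (Rps25 and Rpl14), 11 initiation factors and 4 of the mTORC1 list, beside 20.8% of all genes. The counts of the other lists stayed within 1.5 times.

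Small changes turned sign. In replicates 1 and 2 alone Rpl3l was at -0.00056, Rpl7l1 at 0.0238 and Rplp0 at -0.0046. The change of Rpl7l1 was 0.00301 after quantile normalization, 0.00138 after centring on bright probe sets and 0.00305 on the Gapdh control. Without _x_at and _s_at probe sets Rrs1 was at -0.0218, Rpf2 at -0.0175 and Eif4h at -0.0714, and Ipo7 was at 0.15 as the mean of its probe sets. Centring on a single-symbol Gapdh probe set was not run as planned, and a control probe set of Gapdh took its place. That centring, the all-probe-set and several-symbol counts and the cut of members at a mean of 12 were chosen after seeing the data. Signal over background limits the dim genes, Rps16 and Rpl3l above all.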
